A study of Mus musculus with 4 samples.

Results

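Oxidative phosphorylation genes encode the enzyme complexes with which mitochondria turn electrons from fuel into ATP. They were followed here in mouse embryonic fibroblasts (MEFs) at day 14 of reprogramming toward hepatocyte-like cells, in cultures given Cre to delete Prox1, a homeobox transcription factor of the liver, or an inactive Cre. Genes were taken by name: the nuclear Ndufa, Ndufb, Ndufc, Ndufs, Ndufv, Sdh, Uqcr, Cox4i, Cox5, Cox6, Cox7, Cox8 and Atp5 genes, Cycs, and the mitochondrially encoded mt-Nd, mt-Cytb, mt-Co and mt-Atp genes. These names matched 122 rows, of which 11 pseudogenes were dropped, and 101 of the remaining 111 averaged 10 or more normalized counts across all 4 libraries. They stood among 15809 genes at that level, of 55397 listed. Of the 101 genes, 90 are nuclear and 11 are encoded in mitochondrial DNA (mtDNA). By complex, 42 belong to complex I, 4 to complex II, 9 to complex III, 18 to complex IV and 18 to complex V, with cytochrome c (Cycs) and 9 assembly factors or related genes that share the prefixes.

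All cultures were primary MEFs from E13.5 Prox1(fl/fl) C57BL/6J embryos, and all received the 4-in-1 lentivirus with the reprogramming factors. The libraries labelled Prox1 KO also received Cre fused to GFP, and the control libraries received ΔCre, its inactive form. Each group had 2 libraries, harvested at day 14 in hepatocyte culture medium with serum. Per the study's methods, a MEF line pooled limbs of several embryos, so each library is a mixed culture rather than 1 animal. The labels do not say whether the replicates came from separate MEF lines. Xist stood at 14490 and 13940 in replicate 1 and at 4.89 and 1.06 in replicate 2, so same-numbered libraries shared this trait. The p-values reach no further than these libraries. With so few libraries, the limma error of each gene also leans on the spread of other genes at a similar level. In a bulk library, fewer cells of a type and less RNA per cell cannot be told apart.

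The respiratory chain passes electrons from NADH at complex I and from succinate at complex II to ubiquinone, through complex III and cytochrome c to complex IV, which reduces oxygen. Complexes I, III and IV pump protons, and complex V, the ATP synthase, makes ATP as the protons return. Complex II is wholly nuclear encoded, while the other complexes combine nuclear subunits with subunits encoded in mtDNA. The mtDNA is transcribed as long precursors, which are cut at transfer RNAs. The liver and the heart are rich in these complexes, and some subunits have muscle or lung isoforms.

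The libraries held 42469031 to 48524008 reads on genes. Reads assigned to Prox1 did not fall where the label is Prox1 KO, with 70 and 63 reads against 66 and 24 in the controls (log2 fold change 0.75, SE 0.27, limma adjusted p = 0.0936). A count over the whole gene does not separate transcripts with and without the deleted part, so the deletion could not be checked from it. By limma with the replicate number as a block, at an adjusted p under 0.05 that 6.29% of all genes passed as lower and 5.09% as higher, all 7 epithelial markers, 7 of 10 hepatocyte markers, 4 of 9 fibroblast markers and 5 of 6 proliferation genes were lower in libraries with the Prox1 KO label. The 6th proliferation gene, Rrm2, was higher (log2 fold change 0.65), as were Des (0.36), 1 of 3 muscle markers, and Kdr (0.67), 1 of 4 leukocyte and endothelial markers, and 0 of 2 adipocyte markers passed. DESeq2 called 7 epithelial, 4 hepatocyte, 2 fibroblast, 3 proliferation, 0 muscle, 0 adipocyte and 1 leukocyte and endothelial genes. Of the 12595 genes to which it gave an adjusted p, it called 1.76% higher and 2.07% lower. Without the block 0 genes of any list passed. Summed normalized counts of the epithelial markers were 7518 and 8615 against 12510 and 18000 in the controls, and those of the hepatocyte markers 19650 and 21600 against 25920 and 29450. The fibroblast sums were 914300 and 1081000 against 975600 and 1156000, and the proliferation sums, of which Rrm2 is the larger part, were 10920 and 9034 against 8792 and 7735. The muscle sums, of which Des is the larger part, were 1674 and 1689 against 1226 and 1386. The leukocyte and endothelial sums, of which Kdr is the larger part, were 1322 and 1243 against 1013 and 868. The adipocyte sums were 2240 and 1819 against 2164 and 1612. Sums cover tested markers only, which were 3 of 10 listed for muscle, 4 of 8 for leukocytes and endothelium and 2 of 7 for adipocytes. The hepatocyte genes Tat and Cyp2e1 stood at or near 0 in every library. The part of these shifts in the values of the oxidative phosphorylation genes was not tested.

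Of the 101 genes, 11 passed an adjusted p of 0.05, and they split by genome: 4 mtDNA-encoded complex I genes rose and 7 nuclear genes fell in the libraries labelled Prox1 KO. The test was limma on log2(normalized counts + 1), with the replicate number as a block and Benjamini-Hochberg adjustment over all 15809 genes. The share of the 101 genes that passed was 10.9%, beside 11.4% of all genes tested, so the genes as a whole passed at about the rate of the transcriptome. Lower calls made up 7.78% of the 90 nuclear genes, near the 6.29% of all genes. Higher calls made up 0% of the nuclear genes and 36.4% of the 11 mtDNA genes, beside 5.09% of all genes. Differences were small: the median absolute log2 fold change of the 11 genes was 0.20, and of all genes called 0.28. Without the replicate block none of the 101 genes and none of the 15809 passed, although 11 of the 101 and 1783 of all genes had an unadjusted p under 0.05. With DESeq2 and the block 2 of them passed, mt-Nd5 and mt-Nd1 (8 at an unadjusted p under 0.05), where of the 12595 genes given an adjusted p 1.76% were called higher and 2.07% lower. With edgeR all 11 passed, beside 4.9% called higher and 6.48% lower. In the limma fit 23 of the 101 genes had an unadjusted p under 0.05, beside 23.7% of all genes.

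**Figure D1:**
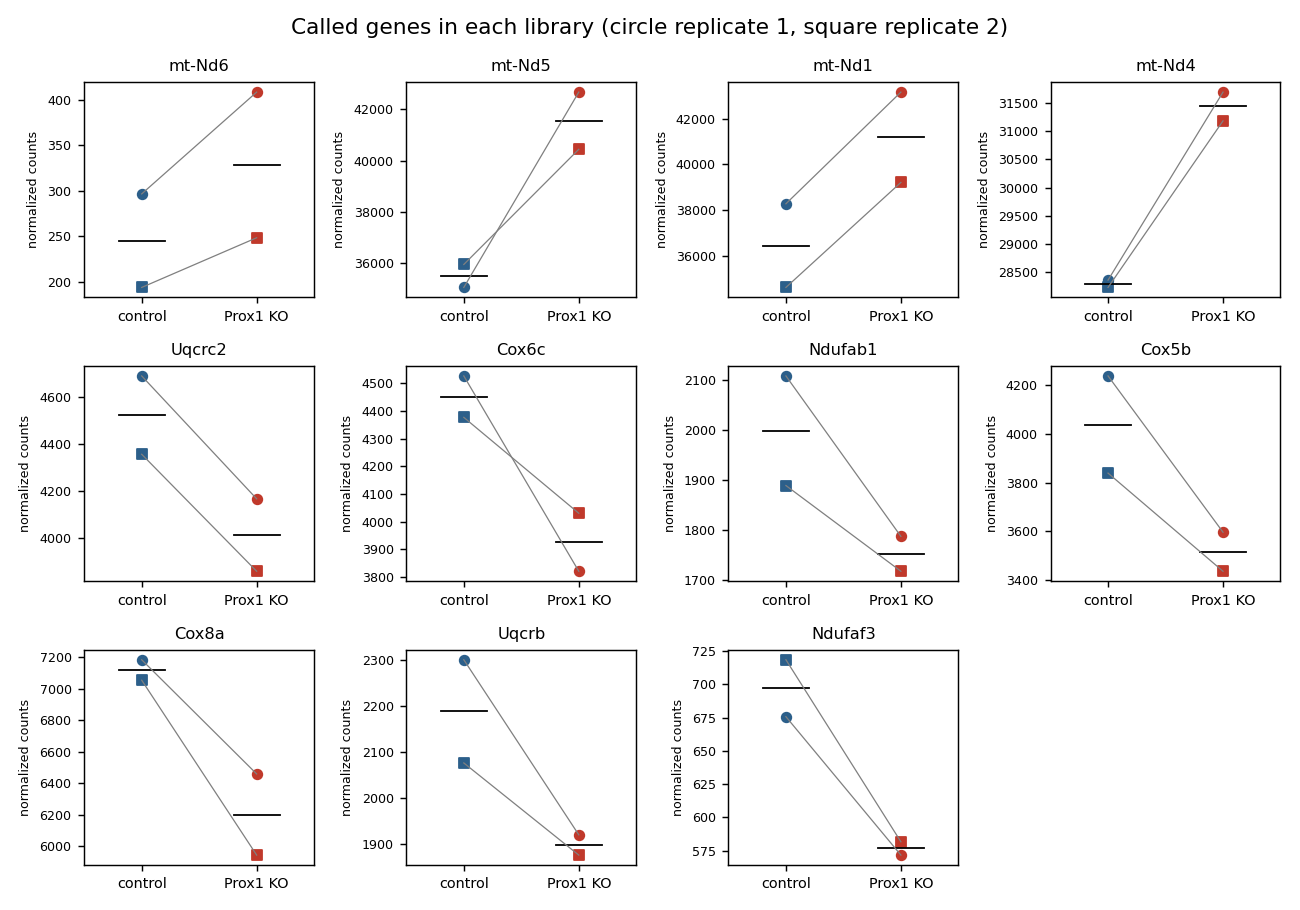
Normalized counts (vertical axis of each panel, not starting at 0) of the 11 called genes in the control and Prox1 KO libraries. Circles are replicate 1, squares replicate 2, grey lines join libraries of the same number and black bars are group means; the 4 mt genes rose in both pairs and the 7 nuclear genes fell in both pairs.

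The mtDNA genes are placed first, since some of them share sequence with other genes. Nuclear DNA carries copies of mtDNA, and reads that match both cannot be assigned to a single place. To show this, the first 80 bases of mt-Co2, which encodes the complex IV subunit that accepts electrons from cytochrome c, are set beside those of its nuclear copy Gm28661 on chromosome 1. The sequences are from GENCODE vM21 transcripts.
mt-Co2: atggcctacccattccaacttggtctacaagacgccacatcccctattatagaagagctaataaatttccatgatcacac
Gm28661: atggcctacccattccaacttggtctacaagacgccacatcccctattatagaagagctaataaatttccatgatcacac
The stretches are identical, and across 681 aligned bases mt-Co2 and Gm28661 had 0 mismatches. Of the 100-base windows of mt-Co2, 99.5% also occurred in another gene, and so did 99.9% of those of mt-Co3, 99.5% of mt-Atp6, 97.6% of mt-Nd3 and 98.5% of mt-Nd4l.

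Levels of the mtDNA genes differed widely. Per kb, mt-Co1, the catalytic subunit of complex IV, had 114900 normalized counts on average over the 4 libraries, mt-Cytb of complex III 65090 and mt-Nd2 and mt-Nd1 of complex I 41090 and 40570. Below these stood mt-Nd4 with 21670 and mt-Nd5 with 21120. The genes with over 90% shared windows were far lower, with mt-Co2 at 265 per kb, mt-Co3 at 65.1, mt-Nd3 at 33.6, mt-Atp6 at 31.3 and mt-Nd4l at 25.3. The nuclear copies held mean normalized counts of 178 for Gm28661 against 182 for mt-Co2, 37.3 for Gm28437 against 51.1 for mt-Co3, 40.3 for Gm10925 against 21.3 for mt-Atp6 and 1.21 for Gm28438 against 11.7 for mt-Nd3. Among annotated transcripts, mt-Nd4 shared 60.8% of its windows with Gm28439 and mt-Co1 30.8% with other genes, and both stayed high. mt-Atp8 and mt-Nd6 shared 0% and stood at 31.2 and 553 per kb. Windows were compared with annotated transcripts only, so copies elsewhere in nuclear DNA could not be seen. Whether shared sequence sets the level was not tested. How reads with several matches were counted is not given in the sources used here, so the levels of mt-Co2, mt-Co3, mt-Atp6, mt-Nd3 and mt-Nd4l are uncertain. mt-Nd6 is the only one of these protein genes on the minus strand, and it overlaps the end of mt-Nd5.

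**Figure D2:**
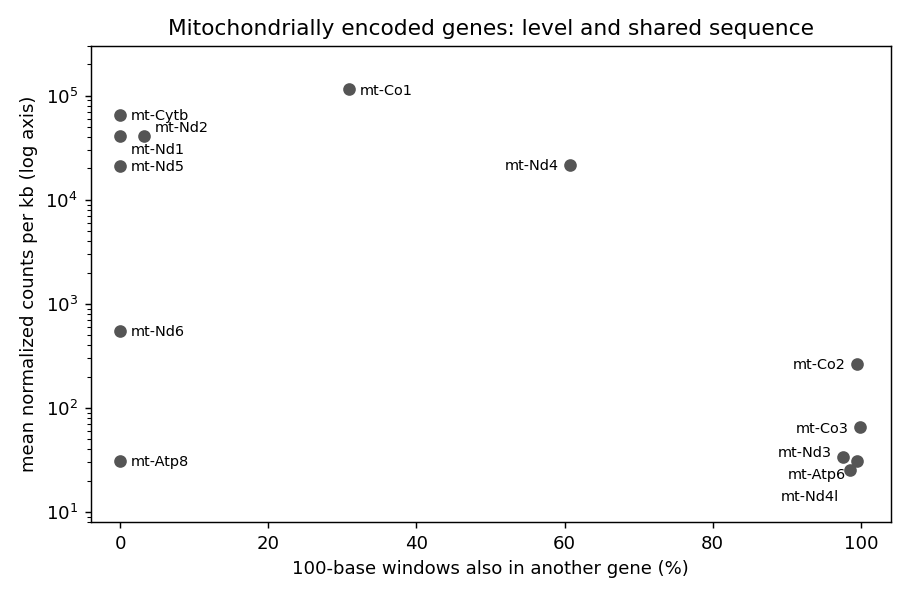
Mean normalized counts per kb over the 4 libraries (vertical, log axis) against the percentage of 100-base windows that also occur in another gene (horizontal), one point per mtDNA-encoded gene. The 5 genes with over 90% shared windows lie between 25.3 and 265 per kb.

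Of the 6 complex I genes of mtDNA, 4 were called higher in the libraries labelled Prox1 KO, beside 5.09% of all genes. mt-Nd5 (mtDNA 11742 to 13565, plus strand), a subunit of the proton-pumping arm, had 42680 and 40440 normalized counts in the Prox1 KO libraries and 35030 and 35930 in the controls. The groups did not overlap, and the log2 fold change was 0.23 (SE 0.04, adjusted p = 0.00254). mt-Nd1 (2751 to 3707), which lies next to the ubiquinone site, had 43150 and 39220 against 38290 and 34650. Both Prox1 KO libraries lay above both controls, with a log2 fold change of 0.18 (SE 0.04, adjusted p = 0.00969). mt-Nd4 (10167 to 11544) had 31690 and 31180 against 28360 and 28230, again without overlap, and differed by 0.15 on the log2 scale (SE 0.04, adjusted p = 0.0205).

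mt-Nd6 (13552 to 14070, minus strand) had 408 and 248 against 297 and 194. Here the groups overlapped and each replicate pair rose, by 0.46 and 0.36 on the log2 scale, so the call rests on the pairing (log2 fold change 0.41, SE 0.11, adjusted p = 0.0303). Of the other complex I genes of mtDNA, mt-Nd2 had 46460 and 40800 against 43760 and 39590 (log2 fold change 0.065, adjusted p = 0.368). mt-Nd3, with 15.6 and 4.89 against 15.6 and 10.6, was too low to compare with any precision (log2 fold change -0.49, SE 0.48).

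Outside complex I, 0 of the mtDNA-encoded members passed with limma on the deposited scaling, and 0 had an unadjusted limma p under 0.05. With edgeR and DESeq2, each with its own scaling, 0 passed as well. This depended on the processing: limma called mt-Co1 after quantile normalization (adjusted p = 0.0385) and mt-Cytb with a correction for length and GC content (adjusted p = 0.0255). mt-Co1 had 181400 and 180200 against 183300 and 164800, and its pairs moved in opposite directions. mt-Cytb had 78580 and 74240 against 75800 and 69230 (log2 fold change 0.076, adjusted p = 0.311). For mt-Co2, mt-Co3 and mt-Atp6, whose levels are uncertain, the log2 fold changes were 0.075, 0.31 and 0.042, with limma adjusted p between 0.495 and 0.963. Among the 11 mtDNA genes, 4 lay above the controls in both Prox1 KO libraries, beside 21.8% of all genes tested, and 0 lay below. Their median log2 fold change was 0.076, or 0.15 over the 7 genes with under 90% shared windows, and 0.24 over all 11 without Prox1 KO replicate 2.

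Summed over the 11 mtDNA genes, the libraries labelled Prox1 KO held 0.952% and 0.904% of all normalized counts, and the controls 0.910% and 0.825%. These ranges overlapped (difference 0.0607 percentage points, two-sided exact permutation p = 0.667, a test that does not use the pairing), while the share was higher by 0.0422 points in pair 1 and by 0.0792 in pair 2. The ratio of mtDNA to nuclear counts over the 101 genes was 1.33 and 1.31 against 1.23 and 1.17. These did not overlap, and p was 0.333, the smallest that an exact test of 2 against 2 libraries can give. The ribosomal RNAs of mtDNA, which are not members, were also listed. mt-Rnr2 had 10850 and 5506 against 8989 and 4622, higher within each pair (log2 fold change 0.26, SE 0.04, limma adjusted p = 0.000555). mt-Rnr1 had 2419 and 2948 against 2977 and 2771, lower in pair 1 and higher in pair 2, and did not pass (log2 fold change -0.11, SE 0.07, limma adjusted p = 0.388).

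Nuclear genes lay slightly lower as a body. The median log2 fold change of the 90 nuclear genes was -0.062, with -0.071 in pair 1 and -0.056 in pair 2, beside -0.002 for all genes tested. Of the 90, 68 had a log2 fold change below 0, beside 50.7% of all genes. In 41 both Prox1 KO libraries lay below both controls, beside 22.6% of all genes, and in 6 both lay above, beside 21.8% of all genes. In 51 both replicate pairs were lower, beside 33.3% of all genes, and in 16 both were higher, beside 32.5%. Nuclear members have short transcripts, with a median exonic length of 1696 bases against 4153 for all genes, and log2 fold changes moved weakly with length over genes (Spearman's rho 0.12 over 15797 genes, which are not independent). With the fold changes corrected for length and GC content, an alternative added after the data were seen, the nuclear median was -0.029 and all 11 calls were kept. The median was -0.038 without control replicate 1.

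**Figure D3:**
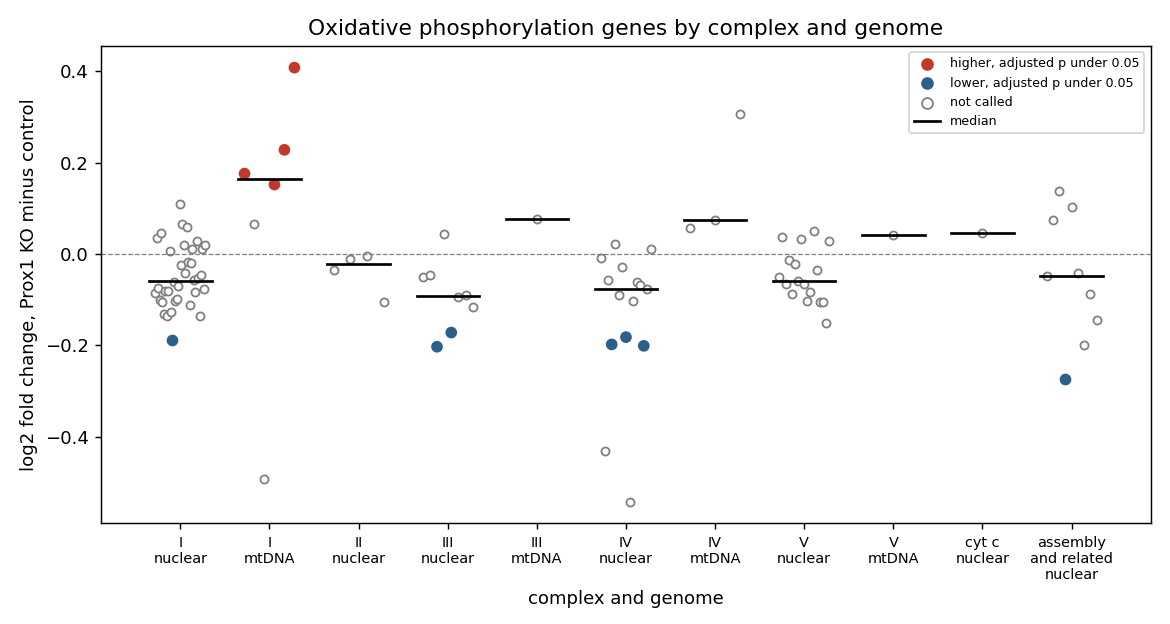
Log2 fold change, Prox1 KO minus control (vertical), of each of the 101 genes, grouped by complex and genome (horizontal). Filled points passed the test (red higher, blue lower), open points did not, and bars are medians; the mtDNA genes of complex I have a median of 0.16 and the nuclear ones of -0.06.

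In complex I, 1 of 36 nuclear genes passed as lower, beside 6.29% of all genes. Ndufab1 (GRCm38 chr7:122085403-122101886), the acyl carrier protein, which also serves mitochondrial fatty acid synthesis, had 1787 and 1717 normalized counts against 2109 and 1889. The groups did not overlap (log2 fold change -0.19, SE 0.05, adjusted p = 0.0332). The core subunits of the electron-entry arm did not pass: Ndufs7, which carries an iron-sulfur cluster, differed by -0.14 on the log2 scale (adjusted p = 0.101), and Ndufv1, which binds NADH, 0.012 (adjusted p = 0.910). The 36 genes ranged from -0.19 to 0.11 with a median of -0.06, while the 6 mtDNA genes of the same complex had a median of 0.16. Over both genomes the complex I median of -0.049 went to -0.004 without control replicate 1, to -0.017 without Prox1 KO replicate 2 and to -0.018 with the length and GC correction.

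Complex II, the succinate dehydrogenase of the tricarboxylic acid cycle, had 4 genes and 0 calls by limma, edgeR or DESeq2. Of its 4 genes 1 had an unadjusted limma p under 0.05, beside 23.7% of all genes. Sdha, the flavoprotein, had 8506 and 8914 against 8936 and 8892, with overlapping groups. The membrane anchor Sdhd had 3037 and 3199 against 3343 and 3363, lower in both libraries, and did not pass (log2 fold change -0.10, adjusted p = 0.173).

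In complex III, 2 of 8 nuclear genes passed as lower, beside 6.29% of all genes. Uqcrc2 (chr7:120635176-120659524), a core protein of the complex, had 4167 and 3860 against 4688 and 4356 (log2 fold change -0.17, SE 0.04, adjusted p = 0.0165). Uqcrb (chr13:66900617-66905378), a ubiquinone-binding subunit, had 1920 and 1876 against 2300 and 2076 (log2 fold change -0.20, SE 0.05, adjusted p = 0.0204). In both genes the groups did not overlap. Part of Uqcrc2 lies opposite Pdzd9, with which it shares 22.7% of its windows on the other strand, and the strand setting of the counting is not given in the sources used here. The partner core protein Uqcrc1 had 8257 and 7832 against 7880 and 7718, and was not lower (log2 fold change 0.044, adjusted p = 0.559).

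In complex IV, 3 of 15 nuclear genes passed, all lower, beside 6.29% of all genes called lower. Cox8a (chr19:7215153-7217616), a small membrane subunit and the common form of Cox8, had 6458 and 5942 against 7184 and 7054 (log2 fold change -0.20, SE 0.04, adjusted p = 0.00557). Cox5b (chr1:36691449-36693681), a zinc-binding subunit, had 3597 and 3437 against 4237 and 3839 (log2 fold change -0.20, SE 0.05, adjusted p = 0.0093). Cox6c (chr15:35925886-35938246), a further small membrane subunit, had 3820 and 4030 against 4527 and 4377 (log2 fold change -0.18, SE 0.05, adjusted p = 0.0177). All 3 lay below the controls without overlap. Complex IV had a nuclear median of -0.077, and its median over both genomes, -0.065, moved to -0.012 with the length and GC correction.

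Complex IV also has alternative isoforms, of which the common ones prevailed. Levels per kb use all annotated exons of a gene joined, and the ratios depend on this choice of length. Cox4i1 has 1550 such bases but a longest transcript of 765, and Cox6b2 has 1108 but a longest transcript of 585. Per kb, Cox4i1 stood 91.5 times above Cox4i2, the lung form, and Cox7a2 65.1 times above the muscle form Cox7a1. Ndufa4, now counted with complex IV, stood 53.8 times above Ndufa4l2, and Cox6b1 6.90 times above Cox6b2, known from testis. The muscle forms Cox6a2 and Cox8b had at most 9.58 and 1.06 normalized counts in any library, and Cox7b2 had 0 in all. Cox4i2 had 50.9 and 49.9 against 74.4 and 62.8, and Cox7a1 20.8 and 18.6 against 33.1 and 25.6. Both were lower without overlap, with log2 fold changes of -0.43 and -0.54, but their errors of 0.23 and 0.33 were large and neither passed (adjusted p = 0.271 and 0.355).

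Of 17 nuclear complex V genes 0 passed with limma, edgeR or DESeq2. Among them, 2 had an unadjusted limma p under 0.05, beside 23.7% of all genes. Atp5b, the catalytic beta subunit, was the highest nuclear member, with 37680 and 37030 against 37250 and 35520 (log2 fold change 0.038, adjusted p = 0.622). Atp5o, a stalk subunit, was the nearest to the threshold with 2387 and 2404 against 2744 and 2580 (log2 fold change -0.15, adjusted p = 0.0618). Cycs, the mobile electron carrier, had 2246 and 2056 against 2194 and 1973 with overlapping groups. Of the 9 assembly factors and related genes, 1 passed as lower, beside 6.29% of all genes. This was Ndufaf3 (chr9:108565537-108567434), an assembly factor of complex I. It had 572 and 582 against 676 and 719, which did not overlap (log2 fold change -0.27, SE 0.08, limma adjusted p = 0.0342). Exons of Ndufaf3, Cox6c, Uqcrb and Ndufab1 overlap a gene on the opposite strand. Reads of these neighbours could not be told apart if the counting did not use strand. The study's methods name the strand-specific dUTP protocol for the libraries, but whether the counting used strand is not given.

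**Figure D4:**
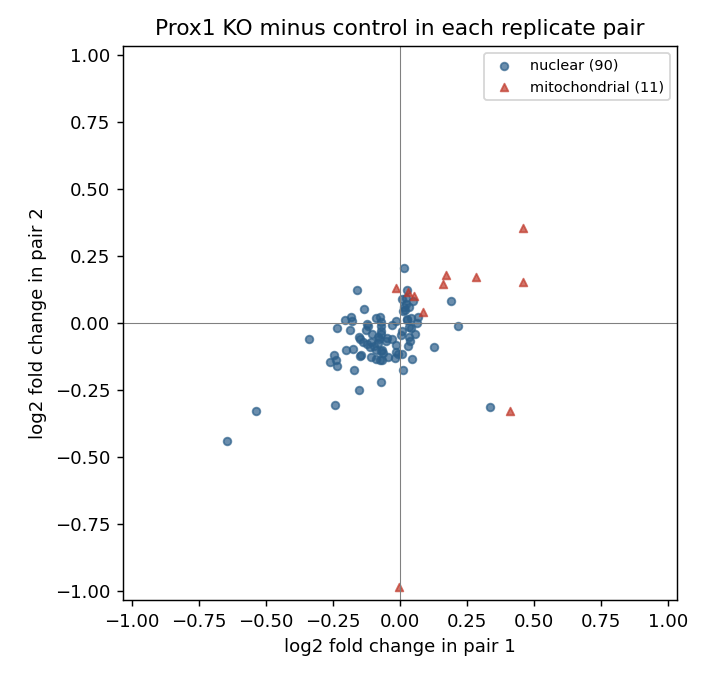
Log2 fold change, Prox1 KO minus control, in replicate pair 1 (horizontal) and pair 2 (vertical) for the 90 nuclear (circles) and 11 mtDNA genes (triangles). Of the nuclear genes 51 lie lower in both pairs and 16 higher in both, and of the mtDNA genes 8 lie higher in both.

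Promoters of the nuclear genes are known to carry sites for NRF1, for the ETS factor GABPA and for YY1. RefSeq windows from 250 bases before to 50 after the start (GRCm38.p6) matched 75 of the 90 nuclear genes. The palindromic NRF1 motif was in 25.3% of them and in 5.19% of all 27025 genes of the table. On either strand, the GABPA letters CCGGAAG were in 25.3% against 9.93%, and the YY1 letters ATGGCGG in 16.0% against 4.69%. Of the 7 nuclear genes that fell, 4 had a window, and Cox8a alone held any of these letters. The 120 bases before the starts of Cox8a (chr19:7217617-7217736, minus strand) and of Ndufaf3 (chr9:108567437-108567556, minus strand) are shown, as the nuclear genes with the smallest adjusted p and the largest called fall, with GABPA letters, read on the other strand, in capitals.
Cox8a: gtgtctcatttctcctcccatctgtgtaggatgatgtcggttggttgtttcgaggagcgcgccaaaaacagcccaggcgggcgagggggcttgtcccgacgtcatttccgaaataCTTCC
Ndufaf3: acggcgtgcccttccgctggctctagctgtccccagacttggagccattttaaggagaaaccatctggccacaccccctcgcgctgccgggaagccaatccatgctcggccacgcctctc
The Cox8a window held 2 matches. The first starts 5 bases before the start of the gene and runs into it, so its last letters are not printed, and the second starts at base 33 after the start, outside the printed stretch.

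Of the factors named for these motifs, Nrf1 differed by -0.002 on the log2 scale, Gabpa by 0.10 and Yy1 by 0.10, and none passed (adjusted p = 0.994, 0.221 and 0.183). Esrra, an orphan nuclear receptor of mitochondrial genes that reads another element, differed by 0.094 (adjusted p = 0.249). Ppargc1a, a coactivator of mitochondrial genes, was low, with 41.6 and 58.7 against 58.8 and 45.8 normalized counts. Esrrg was the 1 regulator of 13 that passed, beside 6.29% of all genes called lower. It had 69.6 and 79.2 against 112 and 121 (log2 fold change -0.64, SE 0.19, limma adjusted p = 0.0353). Tfam, which packages mtDNA and helps start its transcription, had 931 and 913 against 949 and 898. Of 30 mtDNA and mitochondrial RNA factors 0 passed, with 3 at an unadjusted p under 0.05, beside 23.7% of all genes.

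Other mitochondrial genes were counted in the same way. Of 39 assembly factors outside the name rule 0 passed, with 6 at an unadjusted p under 0.05 and a median log2 fold change of -0.045. The 77 mitochondrial ribosomal proteins had 0 calls, 10 at an unadjusted p under 0.05, all lower, and a median of -0.042. Over all 15809 genes tested, 23.7% had an unadjusted limma p under 0.05, and 1967 genes were lower at that level. In the tricarboxylic acid cycle and pyruvate dehydrogenase list, 1 of 26 was higher, the kinase Pdk4 (0.13), and 2 were lower, the phosphatase Pdp1 (-0.35) and Idh2 (-0.18). In fatty acid beta-oxidation, Acadvl was higher (0.14) and Acaa2 (-0.23) and Acadm (-0.17) lower, of 16. Of these 16, 13 had a log2 fold change below 0, beside 50.7% of all genes. In 9 both Prox1 KO libraries lay below both controls, beside 22.6% of all genes, and in 2 both lay above, beside 21.8%. In glycolysis, Pkm (0.17) and Ldhb (0.16) were higher and the lactate carrier Slc16a1 (-0.41) lower, of 22. The values in brackets are log2 fold changes by limma, which called 5.09% of all genes higher and 6.29% lower. Median log2 fold changes were -0.015 for the tricarboxylic acid cycle list, -0.116 for beta-oxidation and 0.005 for glycolysis. The lists with 0 calls also had 0 with edgeR and with DESeq2. DESeq2 called 0 regulators, 1 gene of the tricarboxylic acid cycle list, 0 of beta-oxidation and 2 of glycolysis. Of all genes given an adjusted p, it called 1.76% higher and 2.07% lower.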

How the data were processed

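Bulk RNA-seq of 2 libraries labelled Prox1 KO and 2 controls was analysed, grouped by the labels. The authors mapped reads to mm10 with STAR and deposited normalized counts, a signal per gene made by dividing read counts by DESeq2 size factors. Libraries were made by the strand-specific dUTP protocol. The counting tool, its strand setting and its treatment of reads with several matches are not given in the sources used here. The authors also deposited their own comparison (fold changes and p-values), which was not used. Size factors of 0.939 to 1.09 were recovered from the steps between values, and 100% of values came out as whole reads (tolerance 0.01). edgeR on these reads called 1800 genes. The libraries held 42469031 to 48524008 reads. Without molecular identifiers, counting precision leaves amplification out.

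For genes averaging 10 or more, limma 3.58.1 (R 4.3.3) was run on the log2 scale with a pseudocount of 1, an intensity trend, the replicate number as a block and an adjusted p threshold of 0.05. Fold changes understate those of low genes. The study's methods adjust for the MEF line, and same-numbered libraries deviated together (correlation 0.402 over genes). Xist stood at 14490 and 13940 in replicate 1 and at 4.89 and 1.06 in replicate 2. Libraries of a group differed beyond sampling noise in 33.6% and 34.6% of genes, so none was a duplicate. Alternatives were no block, pseudocounts of 0.1 and 10, no filter and a mean of 50, quantile normalization, rescaling without mtDNA genes, edgeR 4.0.16 and DESeq2 1.42.0 on recovered reads, and libraries left out. The length and GC correction and the mtDNA median without shared genes were added after the data were seen. Scripts were tested on simulated data. Coordinates are from GENCODE vM21 (55137 of 55397 identifiers matched).

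The genes, lists and motifs were chosen with earlier results of these data known. Genes named were Prox1, called members, mtDNA genes, isoform pairs, the largest rises, falls and means, up to 3 called genes per list, and 5 regulators; Ndufs7, Ndufv1, Sdha, Sdhd, Uqcrc1, Atp5o, Cycs, Tat, Cyp2e1, Rrm2, Des, Kdr, Yy1, mt-Rnr1 and mt-Rnr2 were chosen after their values were seen. Other members are given by counts and ranges. No per-sample column was left unused (0).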

Additional observations from a re-analysis of the deposited data

How the results depend on the processing

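All 11 called genes kept their direction under every alternative run. This was largely set in advance, since each had moved the same way in both pairs of these same libraries. Without the replicate block 0 members (0 higher, 0 lower) and 0 genes in all were called, and with DESeq2 and the block 2 members (2 higher, 0 lower) and 483 genes (222 higher, 261 lower). Quantile normalization lost Ndufaf3 and gained mt-Co1, the length and GC correction gained mt-Cytb and mt-Nd2, and the other alternatives with the block called the same 11; the cause was not tested. Without single libraries, in fits without the block where the lone library is assumed to vary like the other group, 0 to 0 members (0 to 0 higher, 0 to 0 lower) and 0 to 118 genes (0 to 13 higher, 0 to 105 lower) were called, and only the fit without Prox1 KO replicate 2 called any.

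Medians of log2 fold changes kept their sign but often moved by more than the SD between the 2 pairs, which was at most 0.022. A mean of at least 50 gave 0.152 for the mtDNA genes, -0.062 for complex IV and -0.06 for complex V. Quantile normalization gave 0.144 for the mtDNA genes, -0.08 for complex IV, -0.058 for complex V and -0.062 for all members. Rescaling without mtDNA genes gave -0.061 for complex IV, -0.052 for complex V and -0.049 for all members, and edgeR -0.068, -0.058 and -0.055. The length and GC correction gave -0.029 for nuclear members, 0.133 for the mtDNA genes, -0.018 for complex I, -0.037 for complex III, -0.012 for complex IV, -0.032 for complex V and -0.02 for all members. Without the 4 mtDNA genes with over 90% shared windows the mtDNA median was 0.152. With a pair or a library left out, medians ranged from -0.085 to -0.038 for nuclear members, 0.051 to 0.244 for mtDNA genes, -0.072 to -0.029 for all members, -0.069 to -0.004 for complex I, -0.043 to -0.013 for complex II, -0.104 to -0.05 for complex III, -0.105 to -0.038 for complex IV and -0.058 to -0.038 for complex V. The difference in the mtDNA share ranged from 0.0422 to 0.0792 percentage points. Depth limits mt-Nd3, mt-Atp6, mt-Co3, Cox7a1 and Cox4i2, which have few reads.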
